A study of Mus musculus with 10 samples.

Results

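The 10 genes described here make up the core of MHC class I antigen presentation, the route by which cells show peptides from their own proteins at the surface. They were chosen by symbol: the heavy chains *H2-K1*, *H2-D1*, *H2-Q4* and *H2-T23*, the light chain *B2m*, the peptide transport and loading genes *Tap1*, *Tap2* and *Tapbp*, and the immunoproteasome subunits *Psmb8* and *Psmb9*. All 10 were among the 53974 genes of the RNA-seq table, and all passed the filter on low values that left 17555 genes. In the ATAC-seq comparison, 6 of 16600 regions lay within 1000 bp of an end of these genes. The study asked how loss of *Arid1a*, which encodes a DNA-binding part of the SWI/SNF remodeler, affects retinal ganglion cells (RGCs) once the optic nerve has been crushed (ONC, optic nerve crush). All mice were on the C57BL/6 strain, were 8 to 10 weeks old and carried floxed *Arid1a* alleles. The WT group (genotype Arid1a fl/fl in the labels) received AAV2-GFP and the cKO group (Arid1a del/del) AAV2-Cre in the vitreous, both under a CMV promoter, which is not specific to RGCs. ONC followed 2 weeks later, and 3 days after ONC the retinas, several per sample, were dissociated and sorted for Thy1.2 on live cells. RNA-seq covered 3 WT and 3 cKO libraries, and ATAC-seq 2 WT and 2 cKO libraries.

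In this pathway the proteasome cuts cytosolic proteins into peptides, and under interferon its catalytic subunits are exchanged for the immunoproteasome subunits. The TAP1-TAP2 transporter carries the peptides into the endoplasmic reticulum, where tapasin (*Tapbp*) holds the heavy chain near the transporter until a peptide binds. A heavy chain with beta-2 microglobulin (*B2m*) and a peptide then reaches the cell surface, where CD8 T cells and natural killer cells read it. Leukocytes and endothelial cells carry much class I, while neurons and photoreceptors of the healthy retina carry little.

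The labels were checked first. *Arid1a* held 18.8, 11.7 and 14.1 TPM (a transcript level scaled by transcript length and to a fixed sum per library) in WT replicates 1, 2 and 3. It held 18.8, 27.9 and 25 TPM in the libraries labelled cKO. The log2 fold change of 0.66 (SE 0.28, adjusted p = 0.274, limma) was not in the direction of the labels, so RNA directions are given by label. Exon-level values, which could show the deletion, were not analysed here. RGC markers were uneven: *Pou4f2* was listed at 0 in 5 of 6 libraries, *Slc17a6* reached at most 1.57 TPM and *Rbpms* 6.43 TPM, while *Nefl* held 5.47 to 20.6 TPM, *Isl1* 51.9 to 104 TPM and *Thy1* 51.9 to 129 TPM. *Isl1* is also made by amacrine and bipolar cells. Rods stood high, with *Sag* from 1193 to 6163 TPM, and T cell markers were present in every library, so the samples are called sorted cells below. Genome-wide profiles of same-label libraries correlated at 0.862 to 0.953 across genes, against 0.851 to 0.918 for libraries with different labels. Sequencing depth is unknown for these files, so no counting error can be given.

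The promoters of the heavy chains show what these genes share in sequence. Interferon regulatory factors bind the ISRE. The pattern TTTCNNTTC is here called the ISRE core, and other forms of the ISRE were not searched. In the 250 bases before the annotated start (RefSeq, GRCm38.p6), *H2-K1*, *H2-D1* and *H2-Q4* held an NF-kappa B consensus followed by an ISRE core. The stretch from the first to the second was 30 bases long in each, and is shown 5′ to 3′ with both matches in capitals. It lay at chr17:34000429-34000458 (minus strand) for *H2-K1*, chr17:35262923-35262952 (plus) for *H2-D1* and chr17:35379443-35379472 (plus) for *H2-Q4*.
H2-K1: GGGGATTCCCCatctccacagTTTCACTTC
H2-D1: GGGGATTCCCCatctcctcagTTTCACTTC
H2-Q4: GGGGATTTCCCatctccccagTTTCACTTC

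Counted from 1 at the 5′ end with *H2-K1* as reference, *H2-D1* differed at 1 base (A18T) and *H2-Q4* at 2 bases (C8T and A18C). The full 300-base promoter entries aligned with 90.4% identity between *H2-K1* and *H2-D1* (206 of 228 aligned columns), 81.7% between *H2-K1* and *H2-Q4* and 78.7% between *H2-D1* and *H2-Q4*. For *H2-K1* the first of its 2 promoter entries was used. It places the start inside the annotated gene, with the 250 bases before it at chr17:34000348-34000597, whereas peak distances for *H2-K1* are counted from the outer end of the gene at base 34000619.

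The promoters of *H2-D1* (chr17:35262844-35263093, plus strand), *B2m* (chr2:122147437-122147686, plus strand) and the bases between the starts of *Psmb9* and *Tap1* (chr17:34187331-34187555, plus strand) are shown because an ATAC-seq region reached into each. Capitals mark the NF-kappa B consensus, the ISRE core (TTTCNNTTC alone) and the CCAAT box. *Tap1* and *Psmb9* lie head to head, and the 225 bases shown are all that separates their annotated starts.
H2-D1: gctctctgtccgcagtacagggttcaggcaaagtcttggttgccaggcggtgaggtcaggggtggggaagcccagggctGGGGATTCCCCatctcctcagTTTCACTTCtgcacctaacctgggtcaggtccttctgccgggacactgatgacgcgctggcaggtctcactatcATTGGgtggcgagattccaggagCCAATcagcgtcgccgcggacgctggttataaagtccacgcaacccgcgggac
B2m: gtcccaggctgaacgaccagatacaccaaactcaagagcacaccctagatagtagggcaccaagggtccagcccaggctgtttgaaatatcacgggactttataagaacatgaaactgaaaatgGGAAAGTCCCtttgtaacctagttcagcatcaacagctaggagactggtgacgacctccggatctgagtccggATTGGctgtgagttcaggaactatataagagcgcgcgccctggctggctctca
Psmb9 to Tap1: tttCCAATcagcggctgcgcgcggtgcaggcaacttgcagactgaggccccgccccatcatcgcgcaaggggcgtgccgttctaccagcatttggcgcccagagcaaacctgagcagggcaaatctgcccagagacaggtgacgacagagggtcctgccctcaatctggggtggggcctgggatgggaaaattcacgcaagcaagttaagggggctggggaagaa

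A promoter was given for 9 of the 10 genes, and *Tap2* was not matched. Motifs were searched on both strands of the 250 bases. The CCAAT box (CCAAT), bound by NF-Y in the class I enhanceosome, was found in 8 of 9 promoters, all but *Psmb8*, against 33.8% of 32851 promoters of the same length. The CRE core TGACG, found in 6 of 9 (*H2-K1*, *H2-D1*, *H2-Q4*, *B2m*, *Tap1* and *Psmb9*), was in 17.8% of all promoters. Its place was not shared by the heavy chains. It lay upstream of the first CCAAT box in *H2-K1* and *H2-D1* and downstream of it in *H2-Q4*. The ISRE core TTTCNNTTC was in 3 of 9 and in 6.31% of all, and the NF-kappa B consensus in 4 of 9, with *B2m* as the fourth, and in 7.25% of all. A promoter without this ISRE core can still hold another form of the ISRE. *B2m* has the letters gaaactgaaa before its NF-kappa B consensus, which the pattern does not match. A GAS element (TTCNNNGAA) was found in *Psmb8* and in 7.02% of all promoters. The match for the CCAAT box and that for the CRE core in *Tap1* and in *Psmb9* were the same bases read from either side, so these promoters are not independent. The TATA box (TATAAA) was found in *H2-D1*, *H2-Q4*, *B2m* and *Psmb8*, and in 12.4% of all. These matches describe letters in a window, and binding was not measured.

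RNA of all 10 genes was on average lower in the libraries labelled cKO, with log2 fold changes of TPM + 1 from -1.73 (*H2-T23*) to -1.09 (*Psmb8*) and a median of -1.36. The median over all genes kept was 0.16. None of the 10 passed the test adjusted over all genes (limma, Benjamini-Hochberg, adjusted p from 0.125 to 0.445). In the same fit 0.0% of genes were called lower and 1 gene (0.0057%) was called higher. At an unadjusted p under 0.05, 7 of the 10 were lower, against 6.45% of all genes kept, and none was higher. In 6 of the 10 every cKO library lay below every WT library, against 7.18% of all genes kept. Between libraries with the same replicate number, 9 of the 10 were lower in cKO in all 3 pairs, against 15.8% of all genes kept, with *Psmb8* as the exception. With the replicate number as a block, 9 of the 10 had an unadjusted p under 0.05, against 8.52% of all genes kept, and none passed the adjusted test. WT replicate 2 was the lowest WT library for 8 of the 10 genes. Without it every cKO library lay below both remaining WT libraries in all 10 genes, against 11.7% of all genes kept. All 10 then had an unadjusted p under 0.05, against 7.9% of all genes kept, and their median log2 fold change was -1.88. This library was singled out by values of these same genes, so the counts without it are no independent support. With another library left out, the number ran from 5 (without cKO replicate 2, 3.97% of all genes kept) to 8 (without cKO replicate 3, 6.95%). TPM was used with no scaling between libraries. When libraries were scaled by the median of ratios, the median of all genes moved from 0.16 to 0.01 and that of the 10 genes from -1.36 to -1.52. Of all genes with an unadjusted p under 0.05, 64.9% were higher in cKO as deposited and 44.2% after scaling, and the 10 genes stayed below 0 under both.

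**Figure D1:**
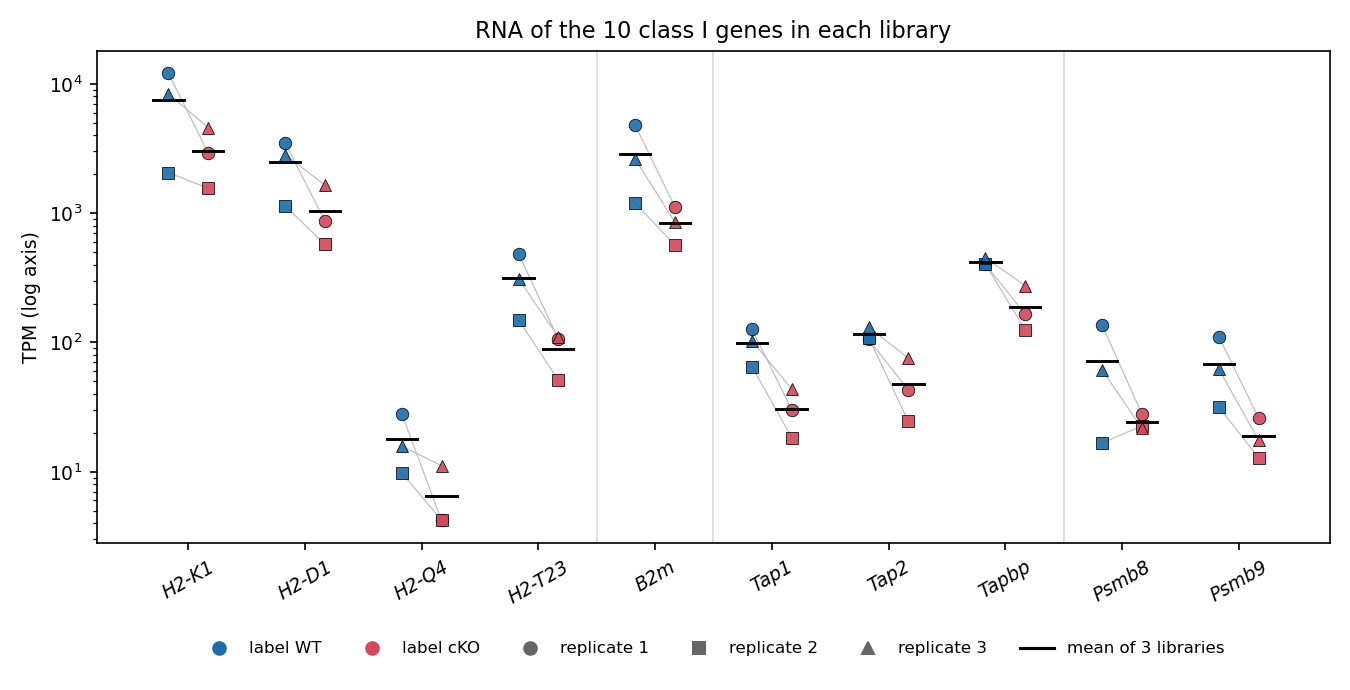
RNA level of the 10 class I genes in each of the 6 libraries, in TPM on a log axis, with WT libraries in blue, cKO libraries in red, a marker shape and a thin line for each replicate number and a bar for the mean of 3 libraries. Blue and red markers are separate for H2-T23, B2m, Tap1, Tap2, Tapbp and Psmb9, while WT replicate 2 of Psmb8 (16.7 TPM) sits below all 3 cKO libraries.

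Among the heavy chains, *H2-K1* and *H2-D1* are the classical molecules of this strain, which present peptides to CD8 T cells. *H2-K1* (chr17:33996012-34000619) was the highest of the 10 genes, at 12110.3, 2059 and 8372 TPM in WT replicates 1, 2 and 3 and 2936, 1558 and 4591 TPM in cKO replicates 1, 2 and 3. WT replicate 2 lay below 2 of the 3 cKO libraries, and WT replicate 1 was 5.88 times as high as WT replicate 2. Its log2 fold change was -1.10 (SE 0.71, adjusted p = 0.445, limma), and without WT replicate 2 it was -1.87 (adjusted p = 0.138).

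*H2-D1* (chr17:35263094-35267497) held 3516, 1142 and 2838 TPM in WT and 873, 574 and 1651 TPM in cKO. WT replicate 2 lay below cKO replicate 3, so the groups overlapped, and the log2 fold change was -1.26 (SE 0.54, adjusted p = 0.274, limma). *H2-K1* and *H2-D1* had the same order of libraries within each group, with replicate 1 the highest of WT, replicate 3 the highest of cKO and replicate 2 the lowest of both.

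*H2-Q4*, a nonclassical heavy chain, was the lowest of the 10 genes (chr17:35379617-35384674). It held 28.0, 9.81 and 15.8 TPM in WT and 4.21, 4.22 and 11.2 TPM in cKO. WT replicate 2 lay below cKO replicate 3, with a log2 fold change of -1.33 (SE 0.49, adjusted p = 0.224, limma). *H2-T23*, which encodes the Qa-1 molecule read by CD94-NKG2 receptors, had the lowest log2 fold change of the 10 genes (chr17:36029977-36032701). It held 487, 149 and 310.2 TPM in WT and 107, 51.3 and 110.3 TPM in cKO. Every WT library lay above every cKO library, and the log2 fold change was -1.73 (SE 0.49, adjusted p = 0.153, limma). The class I heavy chain family includes close paralogs, so the quantification may split reads among them, and the value of a single heavy chain is uncertain. Summed over 18 heavy chain genes, which a split among them leaves untouched, the level was 17498, 3738 and 12396 TPM in WT and 4282, 2366 and 6772 TPM in cKO. The sums overlapped (exact two-sided permutation test, p = 0.3, where 3 against 3 libraries give no p under 0.1).

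*B2m*, the light chain that every classical and most nonclassical heavy chains need, was the second highest of the 10 genes in mean WT level (chr2:122147687-122153082). It held 4779, 1195 and 2622 TPM in WT and 1115, 568 and 851 TPM in cKO. The groups did not overlap, though WT replicate 2 and cKO replicate 1 lay close together. The WT mean was 2866 ± 1804 TPM and the cKO mean 844 ± 274 TPM (SD, n = 3), with a log2 fold change of -1.60 (SE 0.52, adjusted p = 0.186, limma).

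The peptide transport and loading genes separated the labels in every library and varied least within WT. *Tap1* (chr17:34187556-34197225), one chain of the peptide transporter, held 127, 65.1 and 103 TPM in WT and 30.2, 18.4 and 43.7 TPM in cKO. Its log2 fold change was -1.67 (SE 0.38) and its adjusted p of 0.125 (limma) was the smallest of the 10 genes. *Tap2* (chr17:34204479-34216321), its partner, held 105, 109 and 131 TPM in WT and 42.8, 24.5 and 75.7 TPM in cKO. Here WT replicate 2 was not the lowest WT library, and the highest WT library was 1.25 times the lowest. The log2 fold change of *Tap2* was -1.39 (SE 0.40, adjusted p = 0.153, limma).

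*Tapbp* (chr17:33919478-33929290), which encodes tapasin, held 401, 404 and 452 TPM in WT and 166, 126 and 275 TPM in cKO. The WT libraries differed from each other by a factor of 1.13 at most, and all lay well above the cKO libraries, which differed by a factor of 2.19. The WT mean was 419 ± 28.6 TPM and the cKO mean 189 ± 77.1 TPM (SD, n = 3), and the log2 fold change was -1.22 (SE 0.31, adjusted p = 0.138, limma). *Tap2* and *Tapbp* therefore held nearly one level over the WT libraries, while *H2-K1*, *B2m* and *Psmb8* differed between WT replicates 1 and 2 by factors of 5.88, 4.0 and 8.17.

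The immunoproteasome subunits split. *Psmb9* (chr17:34182030-34187330) encodes the subunit that replaces *Psmb6* and shares its promoter bases with *Tap1*. It held 111, 31.7 and 62.4 TPM in WT and 26.1, 12.8 and 17.5 TPM in cKO, with no overlap and a log2 fold change of -1.69 (SE 0.48, adjusted p = 0.154, limma). *Psmb8* (chr17:34198195-34201454) encodes the subunit that replaces *Psmb5*. It held 136, 16.7 and 61.0 TPM in WT and 28.1, 22.6 and 21.8 TPM in cKO. The 3 cKO libraries lay within a factor of 1.29 of each other, while WT replicate 2 lay below all of them and WT replicates 1 and 3 above. The log2 fold change of -1.09 (SE 0.68, adjusted p = 0.430, limma) became -1.88 without WT replicate 2 (adjusted p = 0.0937).

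The other genes of the class I pathway were taken as 41 genes in 5 groups, of which 40 were tested. *H2-T3*, at no more than 0.242 TPM, was not. None of the 40 passed the adjusted test (limma). At an unadjusted p under 0.05, 19 were lower in cKO and 0 higher, against 6.45% and 11.9% of all genes kept. The median log2 fold change of the 40 was -1.14. Of the 13 other heavy chains tested, 7 had an unadjusted p under 0.05, all lower, with *H2-M3*, which presents formylated peptides, at -1.70 (SE 0.33). *H2-Q6*, *H2-Q7* and *H2-Q10* had log2 fold changes of -1.30, -1.58 and -1.38. *Mr1* and *Cd1d1*, which present small metabolites and lipids, were at -0.37 and -0.40 and had no p under 0.05.

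In the proteasome 2 of the 7 other genes tested, *Psmb10* and *Psme2*, were lower at an unadjusted p under 0.05, against 6.45% of all genes kept. *Psmb10*, the remaining immunoproteasome subunit, held 114, 86.7 and 85.0 TPM in WT and 40.5, 32.5 and 38.7 TPM in cKO, with a log2 fold change of -1.32 (SE 0.22, adjusted p = 0.124, limma). *Psme2*, a chain of the PA28 activator, was at -1.26 (SE 0.22). The standard subunits *Psmb5*, *Psmb6* and *Psmb7* were at 0.89, 0.58 and 0.27, with no unadjusted p under 0.05. Among peptide loading genes, *Tapbpl*, a tapasin-related peptide editor, was at -1.36 (SE 0.29) and had an unadjusted p under 0.05. The general chaperones *Calr*, *Canx* and *Pdia3* were at 0.07, 0.39 and -0.34 and had none, as had the trimming enzyme *Erap1* at -0.85.

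Of 9 regulators of class I transcription, all had a log2 fold change below 0. At an unadjusted p under 0.05, 3 were lower, against 6.45% of all genes kept. *Nlrc5*, the class I transactivator, held 34.8, 11.2 and 36.1 TPM in WT and 10.2, 2.65 and 11.7 TPM in cKO, a log2 fold change of -1.65 (SE 0.62). Its WT replicate 2 lay within the cKO range, as with *H2-K1*. *Irf1*, which carries the interferon signal to these promoters, was at -1.26 (SE 0.37). *Rfx5*, *Rfxap* and *Rfxank*, the chains of the RFX factor that binds class I and class II promoters, were at -0.24, -0.44 and -0.78. All 6 receptors that bind class I were lower at that threshold, again against 6.45% of all genes kept. Among them *Cd8a* was at -2.21 (SE 0.60), *Klrd1* (CD94) at -1.85 (SE 0.56) and *Klrc1* (NKG2A) at -1.98 (SE 0.60). These receptors are carried by T cells, natural killer cells and myeloid cells.

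**Figure D2:**
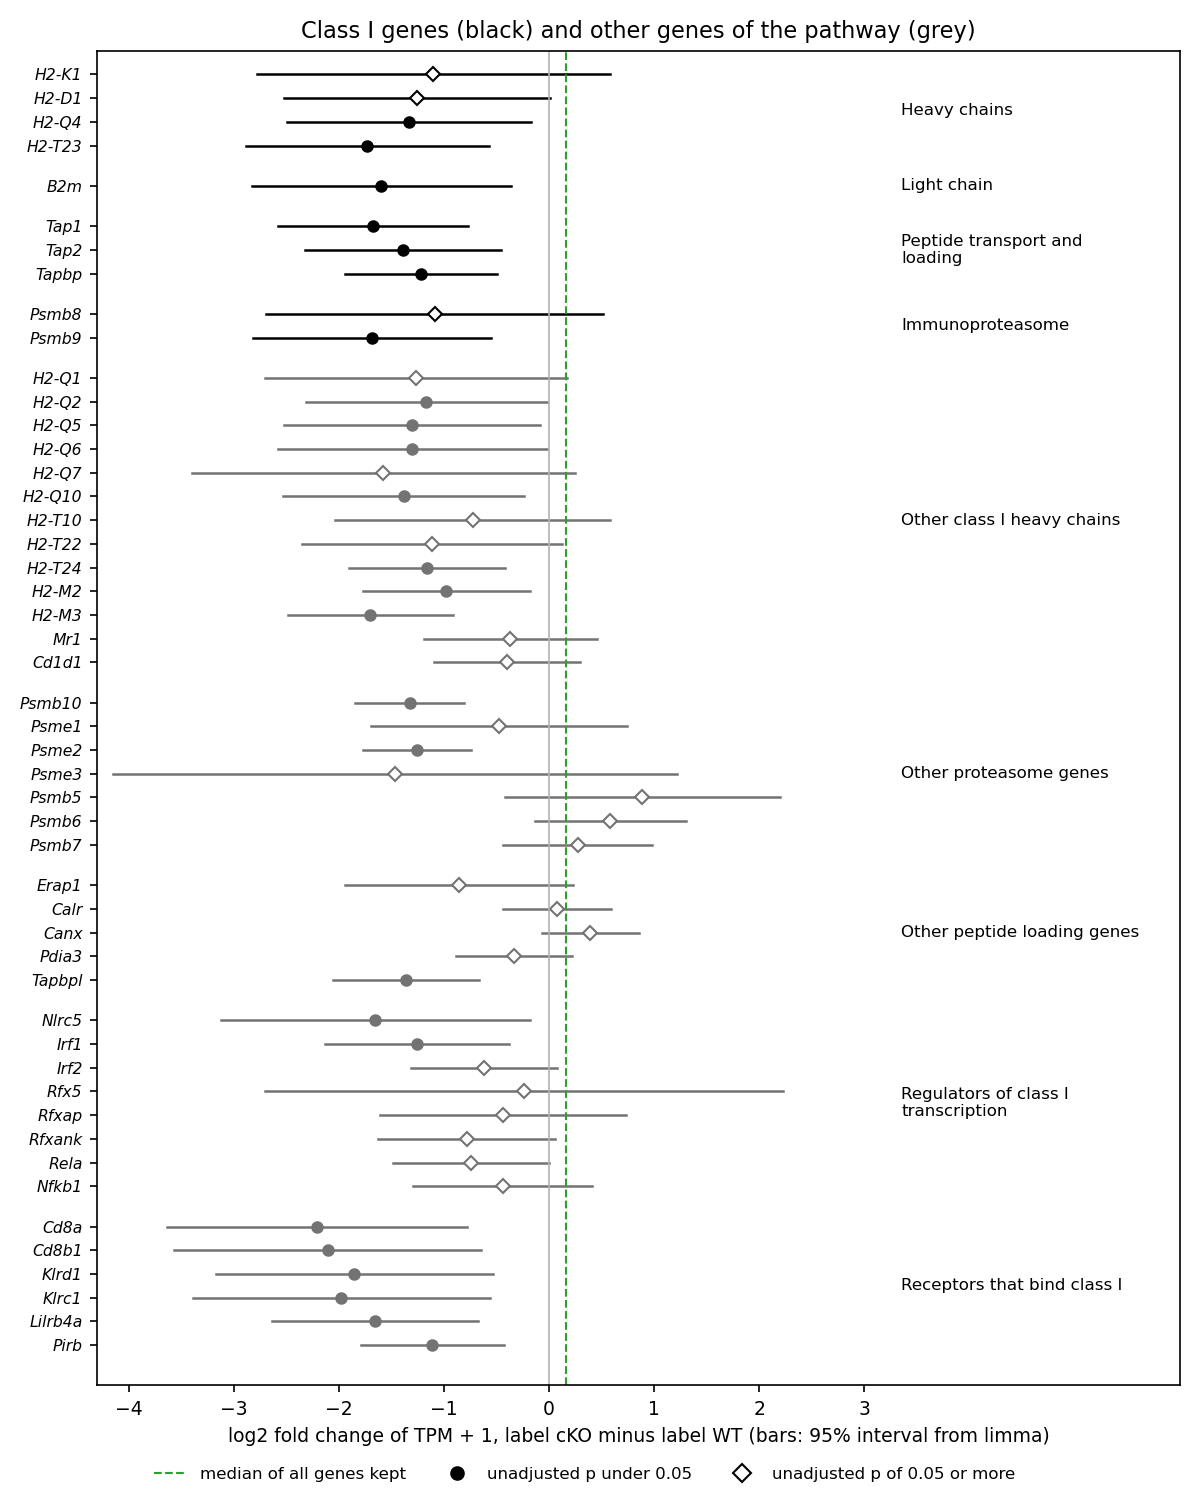
Log2 fold change of TPM + 1, cKO minus WT, for the 10 class I genes (black) and 39 other genes of the pathway (grey), with 95% intervals from limma, filled circles for an unadjusted p under 0.05 and a dashed line at the median of all genes kept (0.16). All 10 class I genes lie left of 0, while the standard subunits Psmb5, Psmb6 and Psmb7 lie to the right, at 0.89, 0.58 and 0.27.

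Markers of T cells and B cells moved with the class I genes, as did part of the myeloid list. Summed over 9 T cell markers, the level was 1836, 643 and 1474 TPM in WT and 392, 161 and 375 TPM in cKO. At an unadjusted p under 0.05, 8 of the 9 were lower and none higher, against 6.45% and 11.9% of all genes kept. No T cell marker was at 0 in any library, and *Cd3e* held 56.7 to 83.1 TPM in WT and 9.13 to 16.5 TPM in cKO. Summed over 4 B cell markers, the level was 106, 29.6 and 95.3 TPM in WT and 12.2, 8.77 and 18 TPM in cKO. In both lists WT replicate 2 was the lowest WT library, as it was for *H2-K1*, *H2-D1* and *B2m*. *Ptprc*, which encodes the pan-leukocyte antigen CD45, was again lowest in WT replicate 2 among WT libraries, at 286, 76.6 and 239.7 TPM in WT and 81.1, 48.1 and 67.6 TPM in cKO.

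The 9 myeloid and microglia markers summed to 1834, 1419 and 2092 TPM in WT and 757, 572 and 573 TPM in cKO. Most of this sum was *Lyz2*, with means of 1237 TPM in WT and 358 TPM in cKO. Of the 9, 4 were lower at an unadjusted p under 0.05, against 6.45% of all genes kept. The others were *Itgam* (-0.24), *Csf1r* (-0.46), *Cx3cr1* (-0.60), *Tyrobp* (-0.70) and *P2ry12* (0.10). The 4 rod markers reported were all higher in cKO at that threshold, against 11.9% of all genes kept. They summed to 4123 to 6315 TPM in WT and 9621 to 17560.1 TPM in cKO. The 5 Mueller glia markers summed to 3343 to 6930 TPM in WT and 2702 to 6848 TPM in cKO. At that threshold 1 of them was lower, against 6.45% of all genes kept. The 5 endothelial markers summed to 299 to 663 TPM in WT and 247 to 672 TPM in cKO, with *Cdh5* at no more than 0.390 TPM. Most of this sum was *Kdr*, with means of 389 TPM in WT and 330 TPM in cKO. All 4 endothelial markers tested had a log2 fold change below 0, and 1 of them was lower at that threshold. That one was *Cldn5* (-1.30), and *Pecam1* was at -1.09. The 10 RGC markers summed to 142 to 199 TPM in WT and 224 to 250.2 TPM in cKO. Most of this sum was *Thy1* and *Isl1*, with WT means of 67.7 and 70.3 TPM. Of the 8 tested, 5 had a log2 fold change above 0 and 3 below. Those below were *Rbpms* (-0.41), *Sncg* (-0.83) and *Pou4f1* (-0.64). At the unadjusted threshold 2, *Thy1* and *Tubb3*, were higher and 0 lower. *Thy1* itself, the sorted antigen, held 51.9 to 88.5 TPM in WT and 94.4 to 129 TPM in cKO. In these bulk samples fewer cells of a type and less RNA per cell cannot be told apart, and the part of T cell, B cell, myeloid and rod RNA in the class I difference was not tested.

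**Figure D3:**
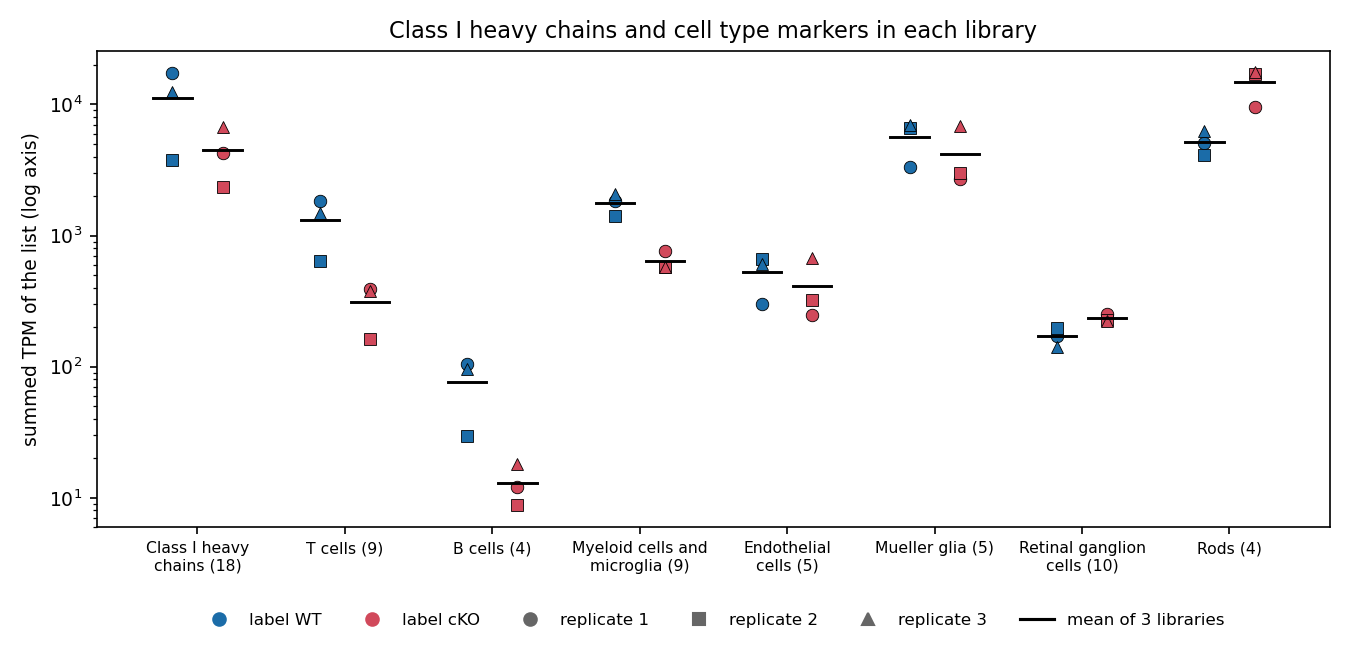
Summed TPM, on a log axis, of 18 class I heavy chains and of 7 lists of cell type markers (number of genes in brackets) in each library, with WT in blue, cKO in red, a marker shape for each replicate number and a bar for the mean of 3 libraries. The heavy chains (3738 to 17498 TPM in WT) have WT replicate 2 as the lowest WT library, as do the T and B cell lists, and the rod list lies higher in every cKO library.

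The genes whose profile over the 6 libraries was nearest to the mean profile of the 10 genes were sought among 10333 other genes with a mean of at least 10 TPM, by the root mean square distance of centred log2 values. The 5 nearest were *Apol7e* (distance 0.128), *Ubash3a* (0.139), *Casp1* (0.155), *Xlr4b* (0.166) and *H2-Q6* (0.173). *Ubash3a*, a regulator of T cell receptor signalling, held 35.5, 14.8 and 29 TPM in WT and 8.88, 5.24 and 9.81 TPM in cKO. Of the 10 genes themselves, *H2-T23* (0.208), *H2-D1* (0.212) and *Tap1* (0.215) lay nearest to their shared mean, and *Psmb8* (0.552) and *Tap2* (0.476) farthest.

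ATAC-seq, which counts cuts by a transposase in open chromatin, gave 6 regions at the ends of 7 of the 10 genes, against 23.9% of 38187 genes with a region at an end, and none at *H2-K1*, *H2-T23* or *Tap2*. The authors' value for a region is the log2 of mean normalized reads of a group, with no value per library, so the spread between libraries cannot be given. The table also holds the authors' own test of each region, which is not used here. The region over the shared start of *Tap1* and *Psmb9* (chr17:34186990-34187834) had the lowest difference, with 5.16 in WT and 2.05 in cKO, that is 35.8 against 4.14 reads and a cKO minus WT difference of -3.11. The *H2-D1* start (chr17:35262867-35263382) had 4.47 in WT and 1.6 in cKO (-2.87), and the *B2m* start (chr2:122147472-122148282) had 5.2 and 2.57 (-2.63). A region at the far end of *Tapbp* (chr17:33929376-33929998), which is also an end of *Rgl2*, was at 4.74 and 2.71 (-2.03). The region between the far end of *Tap1* and the start of *Psmb8* (chr17:34197431-34198185) was at 4.23 and 2.27 (-1.96), and the *H2-Q4* start (chr17:35379423-35380237) at 4.39 and 2.71 (-1.68).

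These differences were like those at gene ends in general. Of the 6 regions, 4 had a difference of -2 or lower, against 68.9% of 7543 regions within 1000 bp of a gene end and 40.8% of all regions. The median was -2.33 for the 6 regions, -2.52 for regions at gene ends and -1.57 for all regions. The share and the median of the class I regions were thus near those of gene ends at large. Just outside the 1000 bp window, a region 3262 bp from *Tapbp* (chr17:33915756-33916216) had 5.69 in WT and -0.75 in cKO, and one 6333 bp from *H2-D1* (chr17:35255693-35256761) had 5.00 and 5.13.

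**Figure D4:**
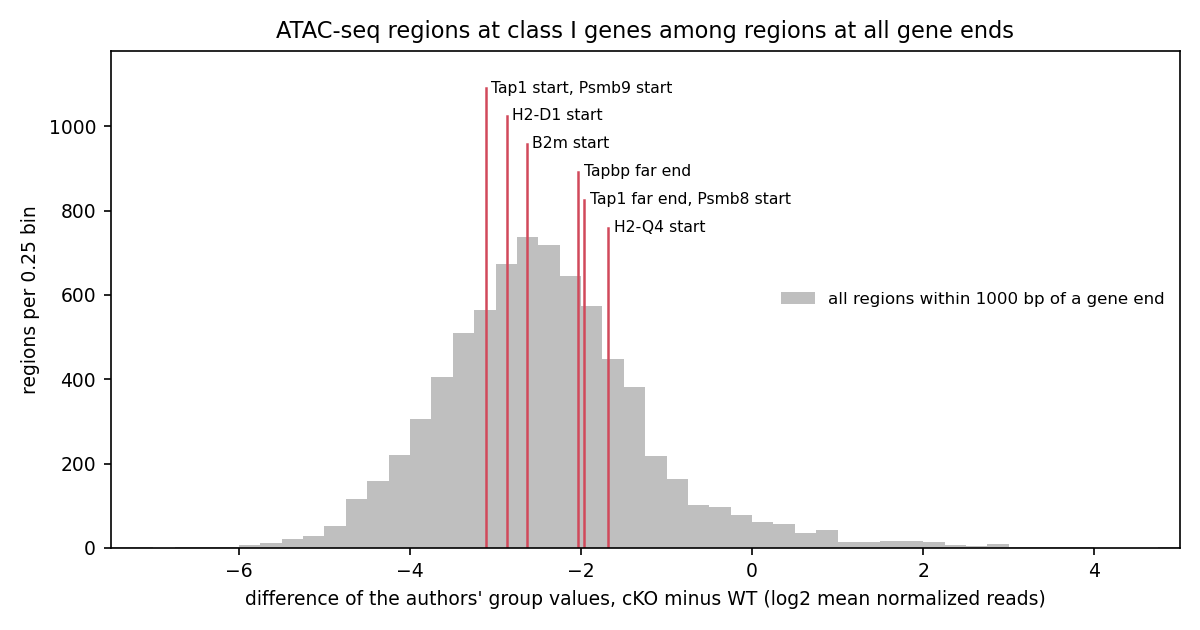
Number of ATAC-seq regions within 1000 bp of a gene end by the difference of the authors' group values, cKO minus WT, on the log2 scale (grey bars, 0.25 wide), with the 6 regions at class I genes as red lines whose height has no meaning. The 6 lines, from -3.11 to -1.68, lie in the body of the distribution, whose median is -2.52.

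Peaks were called in each library. In WT they lay at or near the start for *H2-K1*, *H2-D1*, *H2-Q4*, *B2m*, *Tap1*, *Psmb8* and *Psmb9*. The peak near the start of *Psmb8* was also the one at the far end of *Tap1*. At *Tapbp* both WT peaks lay at the far end, and the peak near its start (-731 to -426 bp) was called in cKO replicate 1. WT replicate 1 had a peak within 1000 bp of an end of 9 of the 10 genes, all but *H2-T23*, and WT replicate 2 of 7. Over 38187 genes the shares were 34.1% in WT replicate 1 and 28.5% in WT replicate 2. Each cKO library had a peak at 1 of the 10, at *Tapbp* in cKO replicate 1 and at *B2m* in cKO replicate 2, and neither overlapped a WT peak of that gene. This was near the share over all genes, 10.5% in cKO replicate 1 and 11.4% in cKO replicate 2. The *B2m* start carried peaks from -215 to 595 bp in WT replicate 1 and from -208 to 117 bp in WT replicate 2, while the peak in cKO replicate 2 lay from 819 to 1041 bp. A peak in both WT libraries was found at 7 of 10 genes, against 23.5% of 38187 genes, and 5 of these 7 had none in either cKO library, against 72.9% of all genes with a peak in both WT libraries. The loss of peaks in cKO was thus near the background. Over all genes, those with a peak in both WT libraries and neither cKO library numbered 5 of 10 (*H2-D1*, *H2-Q4*, *Tap1*, *Psmb8* and *Psmb9*), against 17.1%, a background that includes genes at any level of expression. *Tap1*, *Psmb8* and *Psmb9* share these peaks, so the 5 genes are not 5 separate observations.

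The peaks covered the letters shown above to different degrees. In *H2-D1* and *H2-Q4* the peak of WT replicate 1 held the ISRE core and the NF-kappa B consensus, while that of WT replicate 2 began nearer the start and held neither. In *H2-K1*, with a peak in WT replicate 1 alone (chr17:34000226-34000540), both matches lay inside it. That peak reaches upstream of the start of the promoter entry, though it lies 79 to 393 bp inside the outer end of the gene. In *B2m* the NF-kappa B consensus, the CRE core and the CCAAT box lay inside the peaks of both WT libraries. Between *Psmb9* and *Tap1* the CRE core lay inside the peaks of both WT libraries and the CCAAT box inside that of WT replicate 1. No match lay inside a cKO peak.

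**Figure D5:**
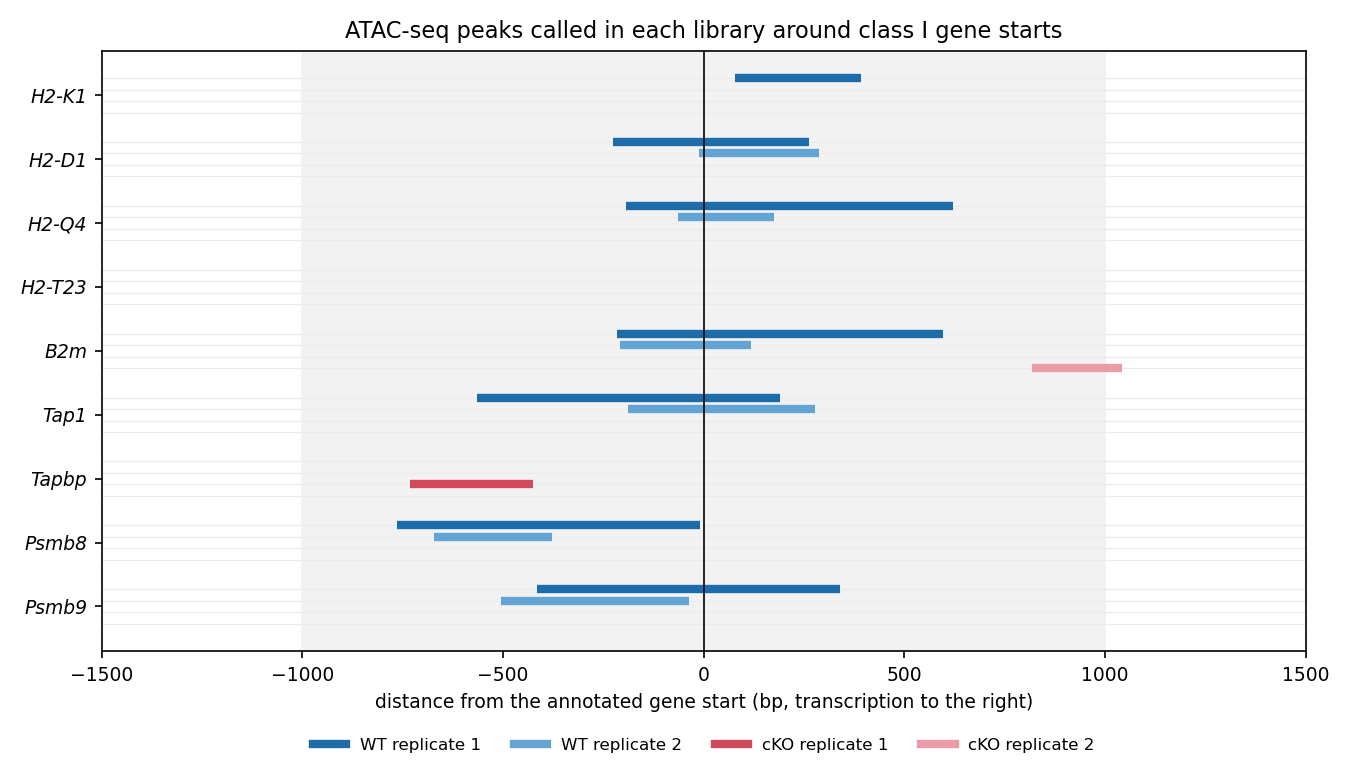
Extent of each ATAC-seq peak called in the 2 WT (blue) and 2 cKO (red) libraries around the annotated start of 9 class I genes, in bp from the start with transcription to the right (Tap2, whose strand was not given, is left out). WT peaks sit at or before the starts of H2-D1, H2-Q4, B2m, Tap1, Psmb8 and Psmb9, while one cKO peak lies before the start of Tapbp (-731 to -426 bp), where neither WT library has a peak, and the other lies past the start of B2m (819 to 1041 bp).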

How the data were processed

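RNA-seq: reads were trimmed and quantified by the authors with Salmon 1.0.0 and summed to genes with tximport, and the deposited values are TPM per gene and library (submitters' processing notes and the study's methods). TPM keeps no depth, so precision rests on 3 libraries per group. The authors' contrast columns (fold changes, p and FDR values) for RNA-seq and ATAC-seq were not used. Genes that reached 1 TPM in 3 or more of the 6 libraries were compared as log2(TPM + 1) with limma 3.58.1 in R 4.3.3 (empirical Bayes with a trend, two-sided, Benjamini-Hochberg over 17555 genes, threshold 0.05). A fold change on this scale understates that of low genes. DESeq2, the study's test, needs counts and was not run. The test was checked on simulated data.

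ATAC-seq: reads were aligned by the authors with Bowtie2 2.3.5.1 to GRCm38. Per the submitters' notes peaks came from MACS2 2.2.5, and the deposited peak lists give positions per library. The deposited region table, made by the authors with DiffBind, gives log2 mean normalized reads per group, from which cKO minus WT was computed. A region or peak counted when at least 1 bp lay within 1000 bp of a gene end (RefSeq table, GRCm38.p6). Positions count from 1. Promoters and motifs were read from RefSeq with Python 3.11.15, and aligned locally with Biopython 1.88.

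Groups came from the sample titles. Nothing in the labels says that the RNA-seq libraries came from separate animals or litters, so p-values measure the spread between these libraries. Replicate numbers were checked for pairing: deviations of same-numbered libraries from their group means correlated at 0.334, 0.101 and 0.425 across genes, against -0.386 to 0.193 for libraries with different numbers. All 3 passed the limit of 0.1 set for pairing, the second barely and below one pair with different numbers, so the number was used as a block in an alternative. The 10 genes, the lists and the tests were chosen with earlier results of these data known. Genes named are the 10, the pathway list, *Arid1a*, the marker lists and the 5 genes nearest in profile, and *Rgl2*, named after its position was seen. Alternatives were a pseudocount of 0.1, no filter, a filter on a mean of 5 TPM, median-of-ratios scaling, the block, limma with no trend, each library left out, gene end windows of 3000 bp, 50% of a region inside the window and a difference of -3. Values of 1 gene of the pathway list and 1 rod marker are not reported here.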

Additional observations from a re-analysis of the deposited data

How the results depend on the processing

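The 10 genes stayed below 0 in all 13 alternatives, and none passed the adjusted test in any of them. Over the alternatives the number with an unadjusted p under 0.05 ran from 5 (without cKO replicate 2, 3.97% of all genes tested) to 10 (without WT replicate 2, 7.90%), and their median log2 fold change from -1.88 (without WT replicate 2) to -1.09 (without cKO replicate 2). Genes whose groups do not overlap numbered 6 to 10 with 1 library left out, with 10 reached without WT replicate 2, where the share over all genes was 11.7%. Over the 6 libraries left out in turn that share ran from 8.55% to 14.3%. With the replicate block, 9 of the 10 had an unadjusted p under 0.05 (8.52% of all genes kept), with adjusted p from 0.0633 to 0.281. *H2-K1* and *H2-D1* were the genes added by the block at the unadjusted threshold. After adjustment the block called 1 gene lower in place of 0 and 1 higher as before, and none of the 10. Leaving out 1 library called 0 to 1 genes lower, with 1 without WT replicate 2, cKO replicate 1 or cKO replicate 3. Without the trend 4 genes were called higher in place of 1. The block together with scaling, added after seeing the data, called 47 genes lower and 3 higher, none of them among the 10. The cause of these changes was not tested. At a difference of -3 or lower, 1 of the 6 ATAC-seq regions was left in place of 4 regions, against 32.2% of regions at gene ends. No paired analysis of the ATAC-seq regions was possible because that comparison holds 1 value per group. Depth is unknown, so differences within the spread of 3 libraries could not be resolved.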
